A study of Mus musculus with 12 samples.

Results

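The genes described here are 31 transcriptional targets of the hypoxia response that lie outside glycolysis. They were chosen by symbol as known or likely targets of the hypoxia-inducible factors (HIFs), with earlier results of these data known. Each symbol was matched to its Ensembl gene in the count tables. All 31 were found among the 38924 genes listed, and all 31 were among the 16645 genes that passed the filter on low counts. By role they comprised 5 secreted factors, 2 proteins of lipid and glycogen storage, 5 mitochondrial proteins, 5 enzymes of collagen modification and endoplasmic reticulum (ER) oxidation, 7 transcription factors and co-regulators, 2 histone demethylases and 5 stress and signaling proteins. For each gene, the response to sunitinib was measured, and then whether it persisted or reversed when rapamycin was added.

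RNA was sequenced from 12 pancreatic neuroendocrine tumors (PanNETs) of RIP1Tag2 mice, a C57Bl6 model in which the rat insulin promoter drives a viral oncogene in pancreatic beta cells, so that every group carried the same transgene. Control mice received saline (4 tumors), a second group received sunitinib, which inhibits the receptors of VEGF and PDGF and so vessel growth (4 tumors), and the remaining mice received sunitinib with rapamycin, an inhibitor of mTOR (R+S, 4 tumors). In all groups treatment started at 15.5 weeks of age and ran for 4 days. The tumors are named by the numbers in their labels, and values are given in the order control 1, 2, 3 and 4, sunitinib 5, 6, 8 and 12, and R+S 4, 5, 7 and 10.

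Cells sense oxygen through prolyl hydroxylases that mark the HIF alpha subunits for destruction by the VHL ubiquitin ligase. When oxygen falls, the alpha subunits escape this mark, pair with ARNT and bind short DNA elements with the core A/GCGTG. Besides the glycolytic enzymes, the genes switched on in this way secrete vessel and metabolic signals, store lipid and glycogen, remove mitochondria, modify collagen and feed back on transcription and growth.

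To show where such elements lie, the 250 bases before the RefSeq transcript start were read for 23 of the 31 genes (GRCm38.p6). No window was listed for *Angptl4*, *Ndrg1*, *Stc1*, *Bnip3l*, *Bhlhe40*, *Kdm4b*, *Plod2* and *Zfp395*. The letters searched were ACGTG and GCGTG on both strands, so that CACGT and CACGC count as matches. The palindrome CACGTG gives 2 overlapping matches. Of the 23 genes, 21 (91.3%) had at least 1 match in a listed window, against 58.9% of the 12037 tested genes with a window and 41.5% of all 27025 genes with a window. CACGTG was present for 6 of the 23 (26.1%), against 9.34% of tested genes. The member windows were richer in G and C (median 64.4%, against 59.6% for tested genes) and in CG dinucleotides (median 21 against 15), and both motifs contain CG. Of the 7 genes that rose after sunitinib and had a window, 6 (85.7%) held a match, against 15 of the 16 other members (93.8%). The windows of 6 of these 7 are shown in the direction of transcription, with matches in capitals. The last, that of *Mif*, holds none. The window of *Ddit4*, with 2 matches, is not shown. Where several starts were listed, the first is shown.
*Ak4*, chr4:101419039-101419288, plus strand: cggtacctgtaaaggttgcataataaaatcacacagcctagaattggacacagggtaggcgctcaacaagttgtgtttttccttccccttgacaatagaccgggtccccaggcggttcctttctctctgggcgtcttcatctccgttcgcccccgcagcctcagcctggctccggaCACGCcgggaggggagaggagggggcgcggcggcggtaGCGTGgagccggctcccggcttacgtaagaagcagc
*Bnip3*, chr7:138909507-138909756, minus strand: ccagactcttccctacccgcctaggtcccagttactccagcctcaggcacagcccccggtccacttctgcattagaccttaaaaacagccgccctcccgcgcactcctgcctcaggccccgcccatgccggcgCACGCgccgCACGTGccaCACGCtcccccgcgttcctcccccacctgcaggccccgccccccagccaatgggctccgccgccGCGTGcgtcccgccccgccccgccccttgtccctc
*P4ha1*, chr10:59323046-59323295, plus strand: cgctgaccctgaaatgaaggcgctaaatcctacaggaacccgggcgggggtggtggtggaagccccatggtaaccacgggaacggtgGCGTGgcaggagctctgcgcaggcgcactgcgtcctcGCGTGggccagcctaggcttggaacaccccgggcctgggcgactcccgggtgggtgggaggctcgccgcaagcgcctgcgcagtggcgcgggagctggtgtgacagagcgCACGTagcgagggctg
*P4ha2*, chr11:54100674-54100923, plus strand: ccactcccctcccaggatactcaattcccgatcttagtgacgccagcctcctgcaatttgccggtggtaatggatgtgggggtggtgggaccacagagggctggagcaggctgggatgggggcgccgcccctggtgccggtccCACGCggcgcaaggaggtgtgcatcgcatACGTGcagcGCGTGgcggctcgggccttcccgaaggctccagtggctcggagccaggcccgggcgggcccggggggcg
*Ankrd37*, chr8:45999851-46000100, minus strand: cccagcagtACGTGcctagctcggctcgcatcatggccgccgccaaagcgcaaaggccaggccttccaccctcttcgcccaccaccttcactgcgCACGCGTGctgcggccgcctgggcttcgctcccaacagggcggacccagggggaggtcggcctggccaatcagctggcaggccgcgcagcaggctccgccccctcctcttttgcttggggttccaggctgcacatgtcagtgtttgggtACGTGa
*Mif*, chr10:75860278-75860527, minus strand: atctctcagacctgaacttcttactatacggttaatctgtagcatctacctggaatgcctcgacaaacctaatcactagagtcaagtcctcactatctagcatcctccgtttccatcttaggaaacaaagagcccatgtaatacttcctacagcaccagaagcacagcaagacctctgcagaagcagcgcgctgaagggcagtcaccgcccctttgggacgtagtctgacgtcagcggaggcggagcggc
In *Ak4* the matches began 74 and 36 bases before the start, and in *P4ha1* 163, 126 and 16 bases before it. *Bnip3* held 5 matches between 117 and 35 bases before the start, among them a CACGTG. *P4ha2* held 3 matches within 107 bases of the start, and *Ankrd37* held 4, the nearest of them 6 bases away. Matches were also present for genes whose counts did not pass the test, such as *Ciart* with 7, *Fam162a* with 6 and *Wsb1* with 6 in its first window. *Nfil3* held no match either. The windows of *P4ha2* and *Ankrd37* lie before starts inside the GENCODE span of the gene. A match is a string of letters and not a measured binding site.

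The tumors had from 31872342 to 44215054 reads assigned to genes. Sunitinib tumor 6 stood apart, with correlations of log2 CPM of 0.872 to 0.895 with the other tumors of its group, against 0.957 or more among the other 3. Its 10 beta cell markers summed to 4656 CPM (counts per 1000000 reads of the TMM-scaled library), while the other 11 tumors had 34165 to 80072. The 15 acinar cell markers summed to 3.32 to 107 CPM with saline, 11927 to 42858 with sunitinib and 3175 to 18023 with R+S. The 9 endothelial markers summed to 527 to 709, 47.1 to 84.5 and 106 to 139 CPM, and the 5 erythroid markers to 68.7 to 375, 1.66 to 4.81 and 2.96 to 22.2 CPM, in the same order of groups. No marker of these lists was at 0 in every tumor of a group. In bulk tumors, fewer cells of a type and less RNA per cell cannot be told apart. The labels also carry a prefix that the 4 control tumors share, that sunitinib tumors 5, 6 and 8 share and that R+S tumors 5 and 7 share. No prefix occurs in 2 groups, and the labels do not say whether it stands for a mouse, and its part cannot be told apart from that of treatment. The p-values measure the spread between tumors that may not be independent.

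A subset of the 31 genes rose with sunitinib, and none fell past the threshold. When all 16645 genes were tested with edgeR's quasi-likelihood method and a threshold of 0.05 on the adjusted p, 8 of the 31 (25.8%) were higher in sunitinib-treated than in control tumors, against 1.93% of all genes tested. These were *Ak4*, *Angptl4*, *Ankrd37*, *P4ha1*, *Mif*, *P4ha2*, *Bnip3* and *Ddit4*, and they came from 4 of the 7 roles. None was lower by edgeR, against 2.55% of all genes, and none was lower at an unadjusted p under 0.05, by DESeq2 or by limma. The log2 fold change was positive in 28 of the 31 genes, with a median of 0.95, whereas 53.3% of all genes had a positive value and their median was 0.03. Since the members were chosen with earlier results of these data known, these differences from all genes are a description. The groups did not overlap for 7 members, all of them higher after sunitinib, against 5.17% of all genes higher and 5.76% lower without overlap. Without tumor 6 the same 8 genes were called, and the median of the 31 was 0.45. With limma and tumor weights the median was 0.51. With the mean log2(CPM + 1) of the acinar markers as a covariate, 0 members and 0 genes in all were called, 775 genes had an unadjusted p under 0.05, the median of the 31 was 0.32 with 18 positive, and 96.5% of the variance of that score lay between these groups.

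**Figure D1:**
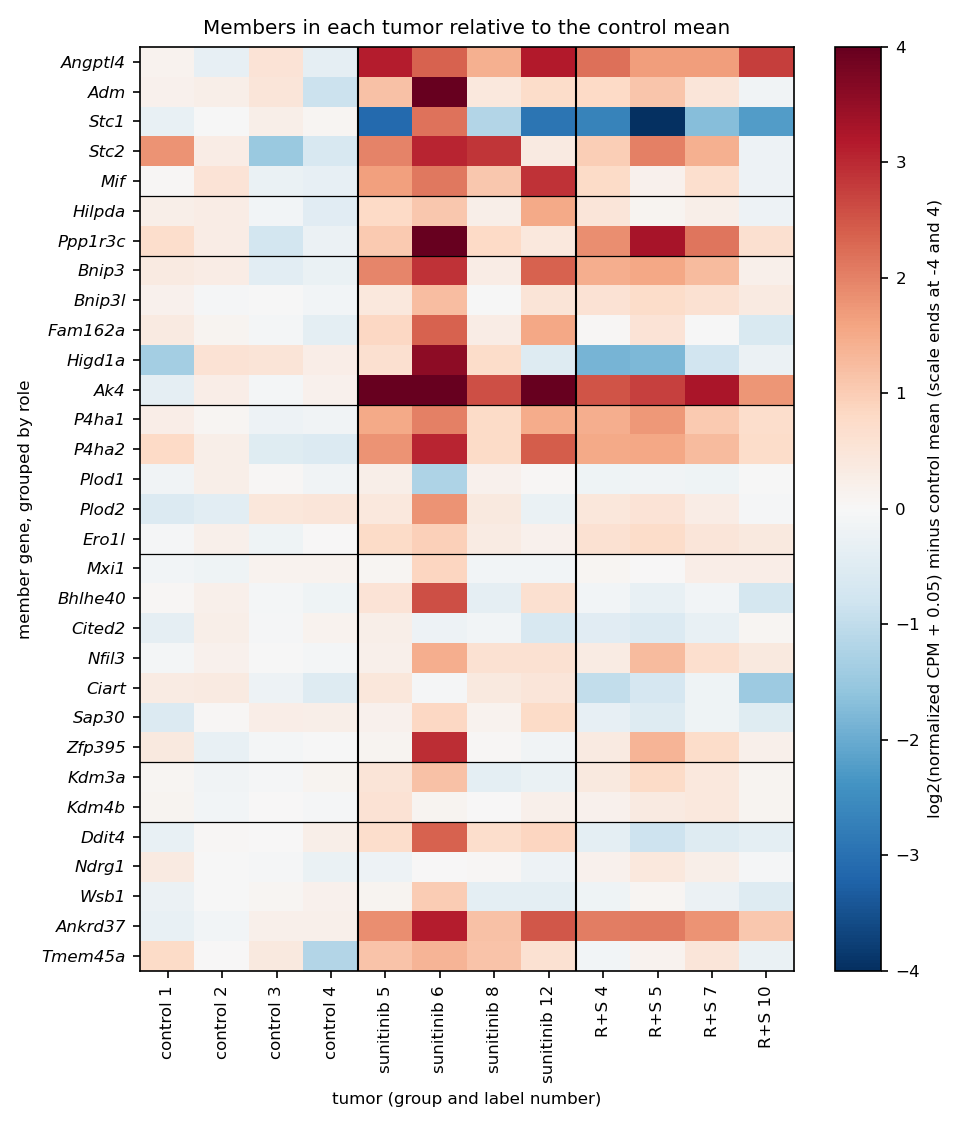
Each cell gives the log2 of normalized CPM plus 0.05 of a member gene (rows, grouped by role) in a tumor (columns) minus the mean of the 4 control tumors. *Ak4*, *Angptl4*, *P4ha1*, *Ankrd37* and *Nfil3* are above the control range in all 8 treated tumors. Sunitinib tumor 6 holds the highest value of its group for 23 of the 31 genes.

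Among the secreted factors, *Angptl4* and *Mif* rose after sunitinib and the other 3 did not pass the test. *Angptl4*, which encodes a circulating inhibitor of lipoprotein lipase (chr17:33773750-33781830, minus strand, ENSMUSG00000002289), was at 1.16, 0.82, 1.52 and 0.789 normalized CPM in the control tumors, 9.59, 5.53, 2.88 and 9.63 in the sunitinib-treated tumors and 4.94, 3.38, 3.37 and 7.3 in the R+S-treated tumors. Every treated tumor lay above every control tumor, and the treated groups overlapped. *Angptl4* was 6.42-fold higher after sunitinib (log2 fold change 2.68, standard error 0.44, adjusted p = 0.00352 by edgeR) and 4.42-fold higher after R+S (log2 fold change 2.14, standard error 0.43, adjusted p = 0.0173).

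*Mif*, a cytokine that restrains macrophage movement (chr10:75859353-75860240, minus strand, ENSMUSG00000033307), was at 23.2, 32.9, 18.6 and 17.9 normalized CPM in the control tumors, 70.8, 96.2, 47 and 168 in the sunitinib-treated tumors and 37.9, 25.6, 36 and 19.6 in the R+S-treated tumors. The 4 sunitinib-treated tumors were the highest of the 12, without overlap, and the R+S-treated tumors lay among or just above the control tumors. *Mif* rose 4.12-fold with sunitinib (log2 fold change 2.04, standard error 0.37, adjusted p = 0.0077 by edgeR). Between R+S and sunitinib it fell by 1.68 on the log2 scale (standard error 0.37, adjusted p = 0.0299 by edgeR), and R+S and control differed by 0.36 (adjusted p = 0.609). Of the 50-base words of *Mif* transcripts, 34.1% also occur in transcripts of 5 other genes, so that its counts are uncertain.

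*Adm*, the precursor of the vasodilator peptide adrenomedullin, was at 1.26, 1.32, 1.6 and 0.592 normalized CPM in the control tumors, 2.6, 21.2, 1.53 and 1.93 in the sunitinib-treated tumors and 1.97, 2.5, 1.6 and 1.01 in the R+S-treated tumors. Tumor 6 was far above the rest, and the groups overlapped (log2 fold change 2.51, adjusted p = 0.113 for sunitinib versus control by edgeR, and 0.76 without tumor 6). *Stc2*, a stanniocalcin hormone, was at 8.17, 2.86, 0.786 and 1.47 normalized CPM in the control tumors, 9.31, 19.3, 16.9 and 2.95 in the sunitinib-treated tumors and 4.58, 9.47, 6.23 and 2.01 in the R+S-treated tumors, and 3 of the 4 sunitinib-treated tumors exceeded every control (adjusted p = 0.2 by edgeR). Its relative *Stc1* was lower in every treated tumor but 1. Control tumors had 8.75 to 12.5 CPM and R+S-treated tumors 0.505 to 3.26, below every control, while the sunitinib group had 1.38 or less in tumors 5 and 12 and 4.70 in tumor 8, and tumor 6 had 48.2. The *Stc1* log2 fold change for R+S versus control was -2.50 (adjusted p = 0.206 by edgeR), and without sunitinib tumor 6, which is not part of that contrast but of the shared fit, the adjusted p was 0.0179.

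Neither gene of lipid and glycogen storage passed the test. *Hilpda*, a lipid droplet protein that blocks the lipase ATGL, was at 4.71, 4.89, 3.68 and 2.88 normalized CPM in the control tumors, 6.86, 8.43, 4.67 and 11.3 in the sunitinib-treated tumors and 5.58, 4.27, 4.7 and 3.42 in the R+S-treated tumors. Sunitinib tumors 5, 6 and 12 lay above the controls and tumor 8 among them (1.94-fold, adjusted p = 0.103 by edgeR). *Ppp1r3c*, which brings protein phosphatase to glycogen, was at 2.2, 1.67, 0.786 and 1.13 normalized CPM in the control tumors, 2.83, 25.2, 2.37 and 1.83 in the sunitinib-treated tumors and 4.97, 13.5, 6.06 and 2.13 in the R+S-treated tumors. In each treated group 3 tumors exceeded all controls and 1 did not, and the log2 fold changes were 2.47 for sunitinib and 2.20 for R+S versus control (adjusted p = 0.15 and 0.182 by edgeR). Without tumor 6 the value for sunitinib was 0.70, and R+S versus control passed the test (adjusted p = 0.0226).

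Of the 5 mitochondrial genes, *Ak4* and *Bnip3* rose. *Ak4*, an adenylate kinase of the mitochondrial matrix (chr4:101419277-101466995, plus strand, ENSMUSG00000028527), had the lowest level per kilobase of all 31 genes in control tumors and the largest fold change after sunitinib. It was at 0.556, 0.873, 0.685 and 0.817 normalized CPM in the control tumors, 19.4, 47.9, 4.56 and 15.2 in the sunitinib-treated tumors and 4.41, 5.08, 7.4 and 2.57 in the R+S-treated tumors. All 8 treated tumors lay above all controls, and sunitinib tumor 8 fell within the R+S range. The group means were 0.733 ± 0.142, 21.8 ± 18.5 and 4.86 ± 1.99 CPM (SD, n = 4 each). *Ak4* was 29.6-fold higher after sunitinib (log2 fold change 4.89, standard error 0.65, adjusted p = 0.000882 by edgeR) and 6.63-fold higher after R+S (log2 fold change 2.73, standard error 0.60, adjusted p = 0.0268), and between R+S and sunitinib it fell by 2.16 (standard error 0.57, adjusted p = 0.0437). Without tumor 6 the log2 fold change was 4.15 for sunitinib versus control and -1.42 for R+S versus sunitinib, where the call was lost (adjusted p = 0.0618 by edgeR). With limma and tumor weights these values were 3.29 and -0.41, and the latter was again not called (adjusted p = 0.555).

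*Bnip3*, a receptor for mitophagy on the outer mitochondrial membrane (chr7:138890836-138909519, minus strand, ENSMUSG00000078566), was at 29.1, 27.8, 16.9 and 18.7 normalized CPM in the control tumors, 86.3, 165, 27.5 and 116 in the sunitinib-treated tumors and 61.4, 66, 54.3 and 25.9 in the R+S-treated tumors. In each treated group 3 tumors exceeded the controls, while sunitinib tumor 8 and R+S tumor 10 fell inside the control range. *Bnip3* rose 4.27-fold with sunitinib (log2 fold change 2.09, standard error 0.46, adjusted p = 0.0247 by edgeR), and had log2 fold changes of 1.17 for R+S versus control (adjusted p = 0.175) and -0.93 for R+S versus sunitinib (adjusted p = 0.184). With limma and tumor weights the value for sunitinib versus control was 1.05 and was not called (adjusted p = 0.17). An antisense gene, *Gm45507*, overlaps 22.3% of the *Bnip3* exon bases, and whether counting used strand is not given in the sources used here.

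The paralog *Bnip3l* was at 75, 63.2, 64.6 and 61.7 normalized CPM in the control tumors, 89, 157, 65 and 93.9 in the sunitinib-treated tumors and 98.5, 109.6, 101 and 84.1 in the R+S-treated tumors. All R+S-treated tumors and 3 of 4 sunitinib-treated tumors lay above the controls, with log2 fold changes of 0.61 and 0.57 for sunitinib and R+S versus control (adjusted p = 0.151 and 0.167 by edgeR). *Fam162a*, a mitochondrial protein linked to hypoxic cell death, was at 13, 10.9, 9.56 and 7.67 normalized CPM in the control tumors, 17.8, 52.5, 12.5 and 29.5 in the sunitinib-treated tumors and 10.3, 14.6, 9.9 and 6.61 in the R+S-treated tumors. Sunitinib tumors 5, 6 and 12 were above the controls and the R+S-treated tumors were spread around them, which gave log2 fold changes of 1.45 for sunitinib versus control and -1.44 for R+S versus sunitinib (adjusted p = 0.0716 and 0.0524 by edgeR). *Higd1a*, of the inner mitochondrial membrane, ranged over 2.25 to 8.81 CPM in control, 4.07 to 69.6 in sunitinib-treated and 1.55 to 4.9 in R+S-treated tumors, and its top value was again that of tumor 6. Exons of *Wdr5b* and *Gm47112* on the other strand overlap 19.8% of the *Fam162a* and 22.5% of the *Higd1a* exon bases, and 20.8% of the 50-base words of *Bnip3l*, 16.5% of *Bnip3* and 10.2% of *Ak4* occur in other genes.

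In the collagen group, *P4ha1* and *P4ha2*, which encode catalytic alpha subunits of collagen prolyl 4-hydroxylase, rose. *P4ha1* (chr10:59323296-59373304, plus strand, ENSMUSG00000019916) was at 42.4, 36.5, 30.4 and 31.6 normalized CPM in the control tumors, 101, 140.3, 59.4 and 97.9 in the sunitinib-treated tumors and 95.2, 117, 71.9 and 57.4 in the R+S-treated tumors. The 8 treated tumors all exceeded the controls, and the treated groups overlapped. *P4ha1* was 2.82-fold higher after sunitinib (log2 fold change 1.50, standard error 0.27, adjusted p = 0.00683 by edgeR) and 2.42-fold higher after R+S (log2 fold change 1.28, standard error 0.27, adjusted p = 0.0216), and R+S differed from sunitinib by -0.22 with a 95% confidence interval of -0.80 to 0.35.

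*P4ha2* (chr11:54100095-54131665, plus strand, ENSMUSG00000018906) was at 17.8, 12.2, 7.3 and 6.93 normalized CPM in the control tumors, 35.9, 84.3, 17.5 and 54.6 in the sunitinib-treated tumors and 29.6, 30.2, 24.6 and 17.2 in the R+S-treated tumors. Sunitinib tumor 8 and R+S tumor 10 lay just under the highest control, and the remaining treated tumors were above it. *P4ha2* rose 4.34-fold with sunitinib (log2 fold change 2.12, standard error 0.45, adjusted p = 0.0195 by edgeR), and was 2.29-fold the control level with R+S (adjusted p = 0.154).

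*Ero1l*, which oxidizes protein disulfide isomerase in the ER, was at 35.5, 42, 32.6 and 36.6 normalized CPM in the control tumors, 62.7, 71.2, 46.1 and 40.8 in the sunitinib-treated tumors and 56.1, 61, 51.3 and 48.4 in the R+S-treated tumors. The R+S-treated tumors did not overlap the controls and sunitinib tumor 12 did, with log2 fold changes of 0.59 and 0.56 against control (adjusted p = 0.0851 and 0.0895 by edgeR). *Plod2*, a lysyl hydroxylase of collagen, was at 24.2, 26.5, 48.6 and 49.7 normalized CPM in the control tumors, 47.8, 122, 46 and 29.5 in the sunitinib-treated tumors and 48.2, 51.3, 43.4 and 33.9 in the R+S-treated tumors, with only sunitinib tumor 6 and R+S tumor 5 above the controls (adjusted p = 0.345 for sunitinib versus control by edgeR). Its relative *Plod1* had 54.5 to 70.8 CPM in control, 25.3 to 70.6 in sunitinib-treated and 52.9 to 59.9 in R+S-treated tumors, and tumor 6 was the lowest of the 12 at 25.3.

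None of the 7 transcription factors and co-regulators passed the test between sunitinib and control. *Nfil3*, a leucine zipper repressor with links to the circadian clock, was at 11.8, 13.8, 12.1 and 11.8 normalized CPM in the control tumors, 14.2, 33.6, 18.9 and 19 in the sunitinib-treated tumors and 15.4, 29.6, 19.7 and 16.1 in the R+S-treated tumors. Both treated groups lay above the controls without overlap, with log2 fold changes of 0.79 and 0.71 (adjusted p = 0.138 and 0.168 by edgeR). *Bhlhe40*, a helix-loop-helix repressor, was at 12.1, 13.4, 11.1 and 10.4 normalized CPM in the control tumors, 17.3, 69.8, 9.02 and 18.3 in the sunitinib-treated tumors and 10.8, 9.6, 11 and 7.1 in the R+S-treated tumors, and sunitinib tumor 8 was below every control while the other 3 were above (adjusted p = 0.181 by edgeR).

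*Sap30*, a subunit of the Sin3 histone deacetylase complex (chr8:57482707-57487860, minus strand, ENSMUSG00000031609), was at 10.1, 15.4, 17.8 and 17.2 normalized CPM in the control tumors, 16.5, 26.3, 16.3 and 25.1 in the sunitinib-treated tumors and 11.9, 10.2, 13 and 10.6 in the R+S-treated tumors. The 4 R+S-treated tumors lay below the 4 sunitinib-treated tumors, and both treated groups overlapped the controls. Between R+S and sunitinib *Sap30* fell by 0.88 (standard error 0.22, adjusted p = 0.0389 by edgeR), with log2 fold changes against control of 0.48 for sunitinib and -0.40 for R+S. *Ciart*, a repressor within the clock, had 4.51 to 8.28 CPM in control, 6.19 to 9.02 in sunitinib-treated and 2.3 to 5.71 in R+S-treated tumors, and the treated groups did not overlap (log2 fold change -1.09, adjusted p = 0.0511 by edgeR).

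*Mxi1*, a partner of MAX that opposes Myc, *Cited2*, which competes with HIF for its coactivators, and *Zfp395* completed the group. *Cited2*, the most abundant member per kilobase in control tumors, ranged over 74.9 to 112 CPM with saline, 60.5 to 113 with sunitinib and 65.5 to 99.9 with R+S. It had log2 fold changes of -0.16 and -0.30 against control, with 95% confidence intervals of -0.60 to 0.28 and -0.73 to 0.14. *Mxi1* ranged over 37 to 46.5 CPM with saline, 38.9 to 76.7 with sunitinib and 42.1 to 50.8 with R+S, with log2 fold changes of 0.24 and 0.15. *Zfp395* was at 193 CPM in tumor 6 and between 20.3 and 64 in the other 11 tumors.

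The histone demethylases *Kdm3a* and *Kdm4b* did not pass the test in any comparison. *Kdm3a* was at 73, 63.6, 66.9 and 76 normalized CPM in the control tumors, 100.3, 158, 53.6 and 58.4 in the sunitinib-treated tumors and 91.3, 118, 94.2 and 76 in the R+S-treated tumors. Sunitinib tumors 5 and 6 were above and tumors 8 and 12 below the control range, and the R+S-treated tumors lay above it, the lowest of them by a margin too small to show at this rounding. *Kdm4b* was at 80.6, 68.7, 75.5 and 71.4 normalized CPM in the control tumors, 109, 78.9, 75.4 and 84.8 in the sunitinib-treated tumors and 83, 94, 98.6 and 79.7 in the R+S-treated tumors, with log2 fold changes of 0.24 and 0.26 against control (95% confidence intervals -0.05 to 0.52 and -0.02 to 0.55).

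Of the remaining 5 genes, *Ankrd37* and *Ddit4* rose with sunitinib. *Ankrd37*, which encodes a small ankyrin repeat protein (chr8:45996902-46005707, minus strand, ENSMUSG00000050914), was at 3.85, 4.31, 5.4 and 5.41 normalized CPM in the control tumors, 17.3, 41.4, 10.7 and 26.8 in the sunitinib-treated tumors and 19.7, 20, 16.3 and 9.9 in the R+S-treated tumors. Treated and control tumors did not overlap. *Ankrd37* was 5.06-fold higher after sunitinib (log2 fold change 2.34, standard error 0.38, adjusted p = 0.0037 by edgeR) and 3.47-fold higher after R+S (log2 fold change 1.80, standard error 0.38, adjusted p = 0.0215). Exons of *Lrp2bp* and *Ufsp2* on the other strand overlap 26.4% of its exon bases.

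*Ddit4*, also known as REDD1, an inhibitor of mTOR signaling that both hypoxia and ER stress induce (chr10:59949669-59951834, minus strand, ENSMUSG00000020108), was at 16.4, 20.7, 20.3 and 23.5 normalized CPM in the control tumors, 32.5, 103, 32.5 and 36.7 in the sunitinib-treated tumors and 15.1, 11.2, 14.1 and 15.4 in the R+S-treated tumors. The 3 groups were separate, with R+S lowest and sunitinib highest. *Ddit4* rose 2.53-fold with sunitinib (log2 fold change 1.34, standard error 0.34, adjusted p = 0.0493 by edgeR). From sunitinib to R+S it fell by 1.87 (standard error 0.35, adjusted p = 0.0252 by edgeR), and R+S differed from control by -0.54 (adjusted p = 0.403). Tumor 6 was at 103 CPM, and without it the log2 fold change for sunitinib versus control was 0.75 (adjusted p = 0.0142 by edgeR) and that for R+S versus sunitinib -1.28 (adjusted p = 0.0144).

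*Tmem45a*, a transmembrane protein, was at 1.78, 1.03, 1.34 and 0.423 normalized CPM in the control tumors, 2.32, 2.71, 2.3 and 1.57 in the sunitinib-treated tumors and 0.943, 1.14, 1.44 and 0.842 in the R+S-treated tumors. R+S-treated tumors lay below all sunitinib-treated tumors (log2 fold change -1.03, adjusted p = 0.104 by edgeR). *Wsb1*, a substrate receptor of a ubiquitin ligase, was at 85.2, 97.7, 104 and 112 normalized CPM in the control tumors, 107, 203, 76.2 and 75.5 in the sunitinib-treated tumors and 88.4, 106, 84.8 and 70.1 in the R+S-treated tumors, with overlap throughout. *Ndrg1*, a stress-response protein often used as a hypoxia marker, had 163 to 250.3 CPM in the controls, 171 to 202 with sunitinib and 189 to 265 with R+S, with a log2 fold change of -0.10 for sunitinib versus control (95% confidence interval -0.42 to 0.22).

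**Figure D2:**
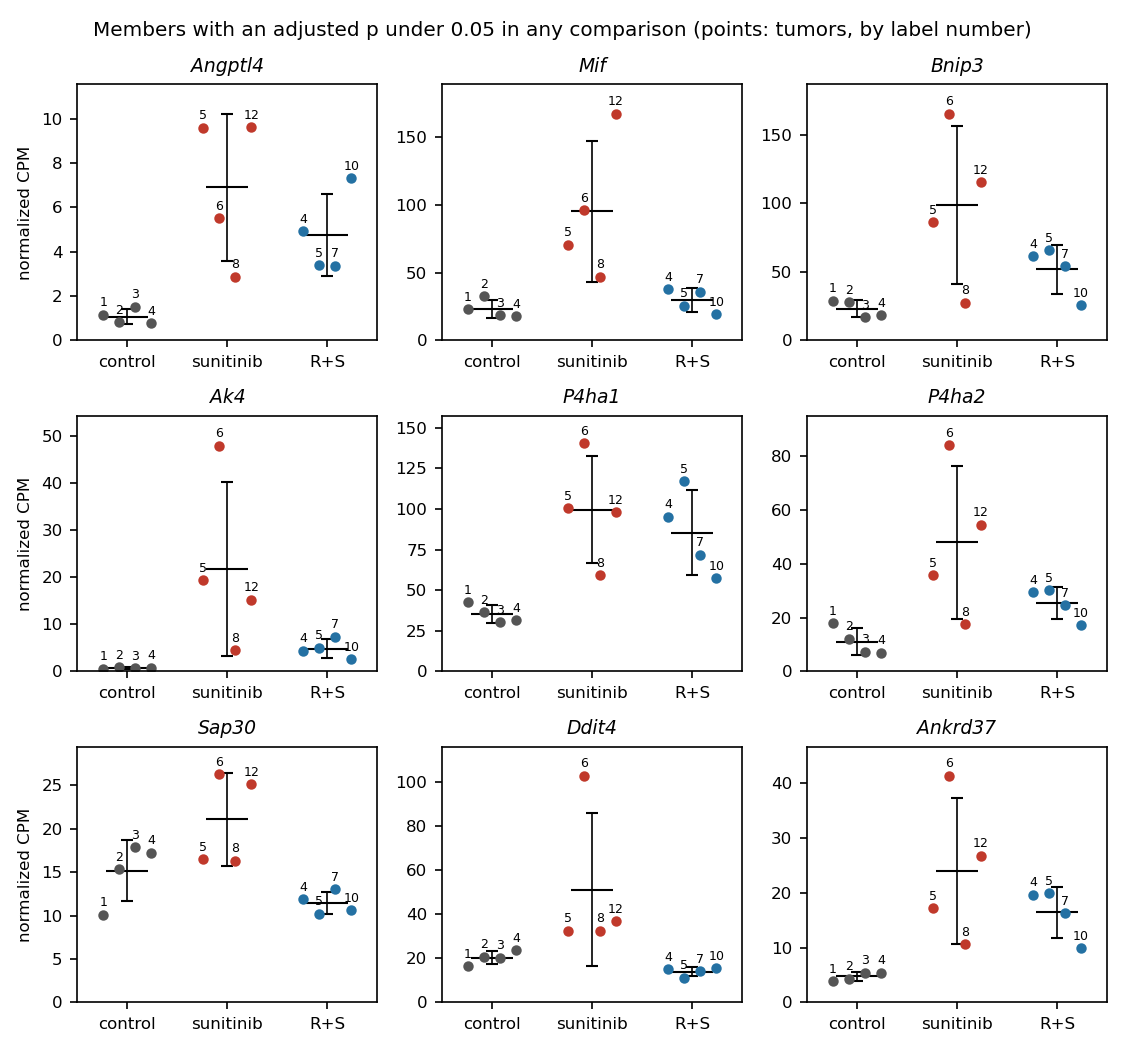
Normalized CPM (vertical axes, linear, starting at 0) of the 9 members with an adjusted p under 0.05 in any comparison, in 4 control, 4 sunitinib-treated and 4 R+S-treated tumors. Points are tumors with their label numbers, the horizontal mark is the group mean and the bar its SD, and for *Ddit4* the R+S-treated tumors (11.2 to 15.4 CPM) lie below the control tumors (16.4 to 23.5 CPM).

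For the 8 genes that rose, the two-sided exact permutation test over the 70 arrangements of 4 tumors against 4 gave its smallest possible p of 0.0286 for 6 of them. It gave 0.0571 for *P4ha2* and 0.0857 for *Bnip3*. The smallest p is reached whenever the 2 groups do not overlap, and 5.17% of all genes were higher and 5.76% lower without overlap. Since these 8 genes were picked by a test on the same tumors, their permutation p-values are a description and no separate support. Without tumor 8, whose values were the lowest of the sunitinib group for 16 of the 31 genes, *Hilpda*, *Bnip3l* and *Fam162a* were called as well, which made 11 genes. Without control tumor 2, 3 or 4 the count was 5, and *P4ha2*, *Bnip3* and *Ddit4* were lost in each case. Over all genes, 328 were higher without sunitinib tumor 8, against 321 with all 12 tumors. That number was 218, 183 and 172 without control tumor 2, 3 or 4.

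Next, the R+S-treated tumors were compared with the control tumors, to ask which genes stayed high with rapamycin added. At an adjusted p under 0.05, 4 members (12.9%) were higher, against 1.55% of all genes. They were *Angptl4*, *Ak4*, *P4ha1* and *Ankrd37*, all of them among the 8 that rose with sunitinib, and they are the members whose response persisted; the comparisons share the control tumors. None was lower by edgeR, against 2.61% of all genes, with 2 lower at an unadjusted p under 0.05, 0 by DESeq2 and 4 by limma with tumor weights. Limma called 2714 of 16645 genes lower in that comparison. The median log2 fold change of the 31 was 0.26, against 0.01 over all genes, and with the acinar score as a covariate it turned to -0.13, with 13 positive and 18 negative values. The groups did not overlap for 8 members that were higher and 2 that were lower (*Stc1* and *Ddit4*), against 11.6% and 11.9% of all genes. The count of members that persisted moved with single tumors. It was 0 without control tumor 2 or 4, 1 without control tumor 3 or R+S tumor 4 or 5, and 2 without control tumor 1 or R+S tumor 7. Without sunitinib tumor 6, 7 members were higher and 2 lower with R+S than in control, with *Bnip3l*, *Ero1l* and *Ppp1r3c* added to those higher and *Stc1* and *Ddit4* lower. With the acinar score as a covariate it was 0, and 93.6% of the variance of that score lay between R+S-treated and control tumors.

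Finally, R+S was compared with sunitinib alone. At an adjusted p under 0.05, 4 members (12.9%) were lower with R+S, against 4.58% of all genes, and these were *Mif*, *Ak4*, *Ddit4* and *Sap30*. Limma with tumor weights called 3 lower and shared only *Ddit4* with these 4: *Ak4*, *Mif* and *Sap30* were lost, with log2 fold changes of -0.41, -0.85 and -0.52 (adjusted p = 0.555, 0.0507 and 0.0511). Over all 16645 genes, limma called 1839 lower and 1731 higher. None was higher by edgeR, against 2.63% of all genes, with 0 at an unadjusted p under 0.05, 0 by DESeq2 and 1 by limma with tumor weights (*Bnip3l*). The log2 fold change was negative in 28 of 31 genes, with a median of -0.69, against -0.02 over all genes; without tumor 6 it was negative in 21, with a median of -0.27. With limma and tumor weights it was negative in 16 and positive in 15, with a median of -0.09, so that the one-sided shift was not seen there. That fit gave sunitinib tumors 5, 6, 8 and 12 weights of 0.63, 0.13, 2.33 and 0.28. It thus rested mostly on tumor 8 for that group, the tumor with the lowest sunitinib value for 16 of the 31 genes. The groups did not overlap for 5 members, all lower with R+S (*Mif*, *Ddit4*, *Sap30*, *Ciart* and *Tmem45a*), against 9.73% of all genes lower and 8.9% higher. Of the 8 genes that rose with sunitinib, *Mif*, *Ak4* and *Ddit4* therefore reversed. Both comparisons share the sunitinib tumors, so genes picked for high values there tend to be lower in R+S, and the count is a description. *Ak4* both persisted and reversed, since its R+S level lay between those of the other groups, and *Bnip3* and *P4ha2* did neither. *Angptl4*, *P4ha1* and *Ankrd37* had log2 fold changes between R+S and sunitinib of -0.54, -0.22 and -0.54, with 95% confidence intervals of -1.43 to 0.35, -0.80 to 0.35 and -1.34 to 0.25.

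Of the members called lower with R+S than with sunitinib, the count was 0 without R+S tumor 4, 5 or 7, 1 without R+S tumor 10, 2 without control tumor 2, 3 or 4 or sunitinib tumor 12, and 8 without sunitinib tumor 5. Over all genes, 762 were lower with all 12 tumors. That number was 1, 0 and 1 without R+S tumor 4, 5 or 7 and 186 without R+S tumor 10. It was 386, 260 and 438 without control tumor 2, 3 or 4, 390 without sunitinib tumor 12 and 1691 without sunitinib tumor 5. With the 8 treated tumors alone, 0 members and 3 genes in all were called between R+S and sunitinib, with 3971 genes at an unadjusted p under 0.05. The count of reversed members was 0 without sunitinib tumor 12 or any single R+S tumor, 1 without any single control tumor, 2 without sunitinib tumor 6 and 4 without sunitinib tumor 5 or 8.

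**Figure D3:**
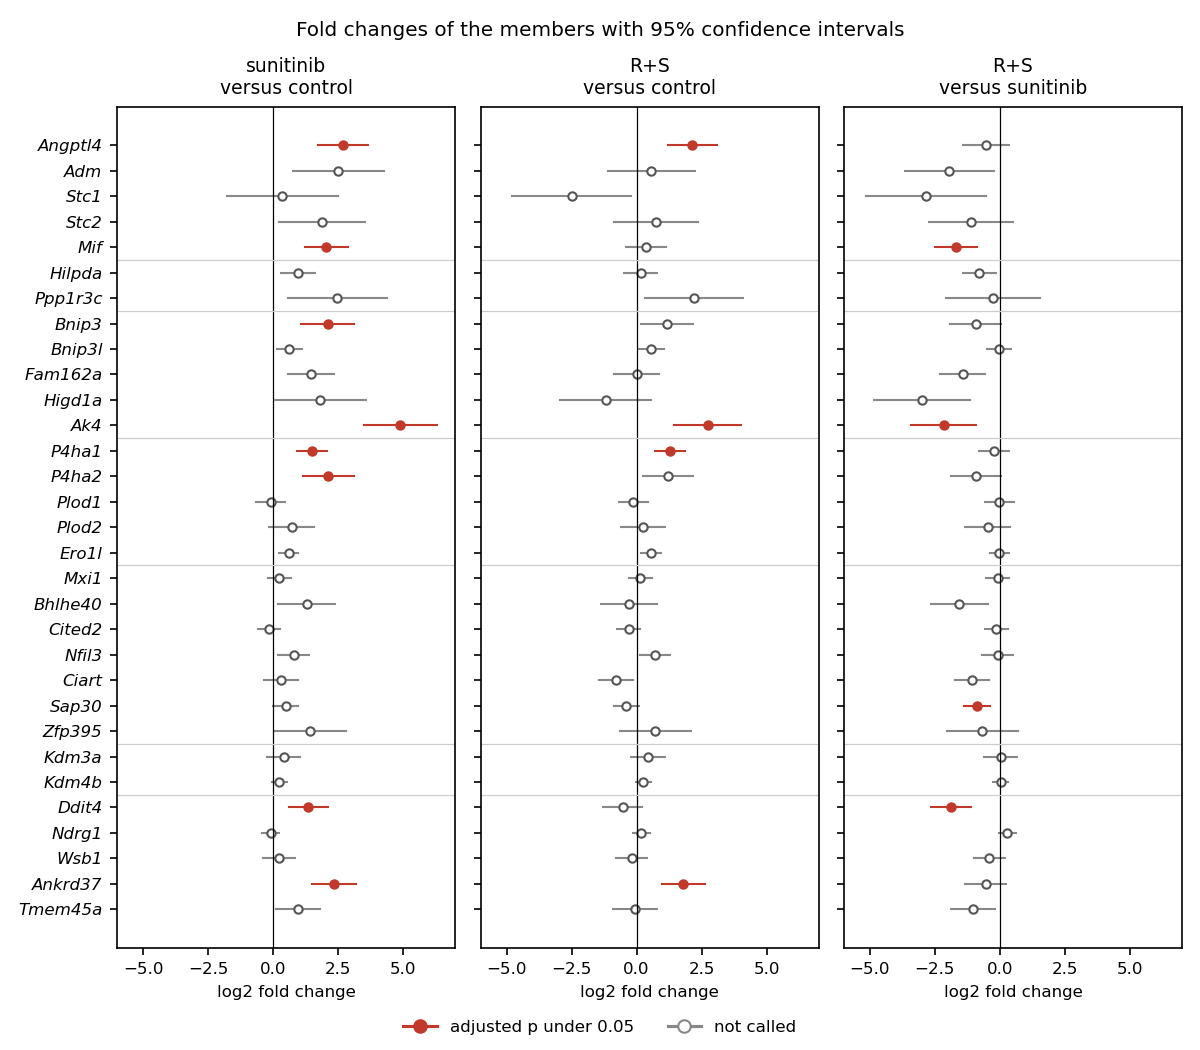
Log2 fold changes (horizontal axes) of the 31 members, grouped by role, in the 3 comparisons, with 95% confidence intervals from edgeR. Filled points have an adjusted p under 0.05: 8 to the right of 0 for sunitinib versus control, 4 to the right for R+S versus control and 4 to the left for R+S versus sunitinib.

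The response also varied from tumor to tumor within a group. Of the 31 genes, 23 exceeded every control in sunitinib tumor 5 and 26 did so in tumor 6, against 13 for tumor 8 and 17 for tumor 12. In R+S tumors 4, 5, 7 and 10 the numbers were 15, 18, 16 and 9. For comparison, each control tumor exceeded the other 3 for 5 to 11 genes. Tumors 8 and 10 thus gave the lowest counts of their groups. Tumor 8 had the second highest acinar sum of its group (34625 CPM) and tumor 12 the lowest (11927 CPM), while their *Ak4* levels were 4.56 and 15.2 CPM. Tumor 6 had both the highest acinar sum (42858 CPM) and the highest *Ak4* level (47.9 CPM) of that group. Tumor 5 had the third highest acinar sum (27916 CPM) and the second highest *Ak4* level. In the R+S group, tumor 10 had the highest acinar sum (18023 CPM) and tumor 7 the lowest (3175 CPM), with *Ak4* at 2.57 and 7.4 CPM. For *Angptl4* the order was reversed, with 7.3 CPM in tumor 10 and 3.37 in tumor 7. Most of the variance of the acinar score lay between sunitinib and control (96.5%) and between R+S and control (93.6%). In these comparisons the fit with that score could not tell its part apart from that of treatment. Between R+S and sunitinib the share was 44.7%. The part of acinar, endothelial or erythroid RNA in the members' changes was not tested further.

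Control levels per kilobase of exon spanned a wide range. *Cited2* (39.3 ± 6.68 CPM per kilobase, mean ± SD, n = 4), *Mif* (31.1 ± 9.28), *Ndrg1* (30.3 ± 5.56) and *Wsb1* (25 ± 2.81) led, and neighbours in this order differed by no more than the larger of their SDs. At the low end were *Tmem45a* (0.365 ± 0.182), *Angptl4* (0.303 ± 0.0968) and *Ak4* (0.158 ± 0.0305), of which only the last pair differed by more than its SDs. After sunitinib *Ak4* stood at 4.69 ± 3.99 CPM per kilobase and *Angptl4* at 1.95 ± 0.933, still below the control level of *Cited2*. The 8 genes that rose ranked from 2 (*Mif*) to 31 (*Ak4*) of the 31.

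Other genes of the pathway gave the setting. Of 8 tested HIF subunits and oxygen sensors, 1 rose with sunitinib: *Egln1*, a prolyl hydroxylase that is itself a HIF target (log2 fold change 0.58, standard error 0.13, adjusted p = 0.0279 by edgeR), and it was also higher with R+S (log2 fold change 0.84, standard error 0.13, adjusted p = 0.00467). *Epas1*, which encodes HIF-2 alpha and is abundant in endothelium, had a mean of 78.3 CPM in control tumors and 22.3 in sunitinib-treated tumors (log2 fold change -1.81, standard error 0.51, adjusted p = 0.0732 by edgeR), and *Egln2* had a log2 fold change of 0.34 (adjusted p = 0.313). Of the 19 glycolytic targets, 13 were higher with sunitinib, 1 was higher with R+S than in control and 8 were lower with R+S than with sunitinib (adjusted p under 0.05 by edgeR), with medians of 1.17, 0.46 and -0.79 on the log2 scale. The first by adjusted p were *Slc16a3*, *Eno1* and *Tpi1*. The matching shares of all genes by edgeR were 1.93%, 1.55% and 4.58%. DESeq2 called 15, 3 and 9 of the 19 in the 3 comparisons, and limma with tumor weights called 10, 12 and 4. Over all genes, limma called 2584 higher and 2714 lower between R+S and control, and 1731 and 1839 between R+S and sunitinib. In all, 8 of 31 non-glycolytic and 13 of 19 glycolytic targets were called with sunitinib; the difference between these shares was not tested.

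Of 5 tested targets with other roles, *Igfbp3*, which binds insulin-like growth factors, fell with sunitinib (log2 fold change -3.58, standard error 0.42, adjusted p = 0.000414 by edgeR) and was also lower with R+S than in control (log2 fold change -3.22, standard error 0.42, adjusted p = 0.00125). *Car9*, an extracellular carbonic anhydrase and classical hypoxia marker, had means of 0.483 CPM in control, 2.37 in sunitinib-treated and 0.427 in R+S-treated tumors. At such low levels its counts are imprecise, and 0 of these 5 targets were called higher with sunitinib by edgeR. *Car9* was lower with R+S than with sunitinib (log2 fold change -2.47, standard error 0.66, adjusted p = 0.0457 by edgeR). *Lox*, which crosslinks collagen, had a log2 fold change of 0.83 with sunitinib (adjusted p = 0.272 by edgeR).

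Since *Ddit4* is also a target of ATF4, the transcription factor of the integrated stress response, 13 ATF4 targets including *Atf4* itself were examined. With sunitinib 1 of 13 was higher (*Atf3*; log2 fold change 1.16, standard error 0.27, adjusted p = 0.0311 by edgeR), and *Trib3* and *Phgdh* had log2 fold changes of 0.97 and 0.88 (adjusted p = 0.204 and 0.219). Between R+S and sunitinib 7 of 13 were lower and 0 higher, with a median of -1.18, among them *Phgdh*, the first enzyme of serine synthesis (log2 fold change -2.10, standard error 0.39, adjusted p = 0.0252), and *Atf4* (log2 fold change -0.92, standard error 0.15, adjusted p = 0.0233). Between R+S and control 2 of 13 were lower. Over all genes, 4.58% were lower between R+S and sunitinib and 2.61% between R+S and control by edgeR. Without R+S tumor 4, 5 or 7, only 1, 0 and 1 genes in all were lower between R+S and sunitinib. DESeq2 called 1, 7 and 11 of the 13 in the 3 comparisons, and limma with tumor weights called 3, 7 and 11. Whether ATF4 had a part in the changes of *Ddit4* was not tested. Of 12 clock genes, examined because *Nfil3*, *Bhlhe40* and *Ciart* act in the clock, 0 passed the test by edgeR in any comparison, while in the 3 comparisons 2, 4 and 6 had an unadjusted p under 0.05, 0, 4 and 4 were called by DESeq2 and 2, 4 and 3 by limma with tumor weights. The first by adjusted p with sunitinib were *Nr1d2*, *Per1* and *Nr1d1* (log2 fold changes -0.44, 0.62 and -0.50, adjusted p = 0.152, 0.168 and 0.262).

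**Figure D4:**
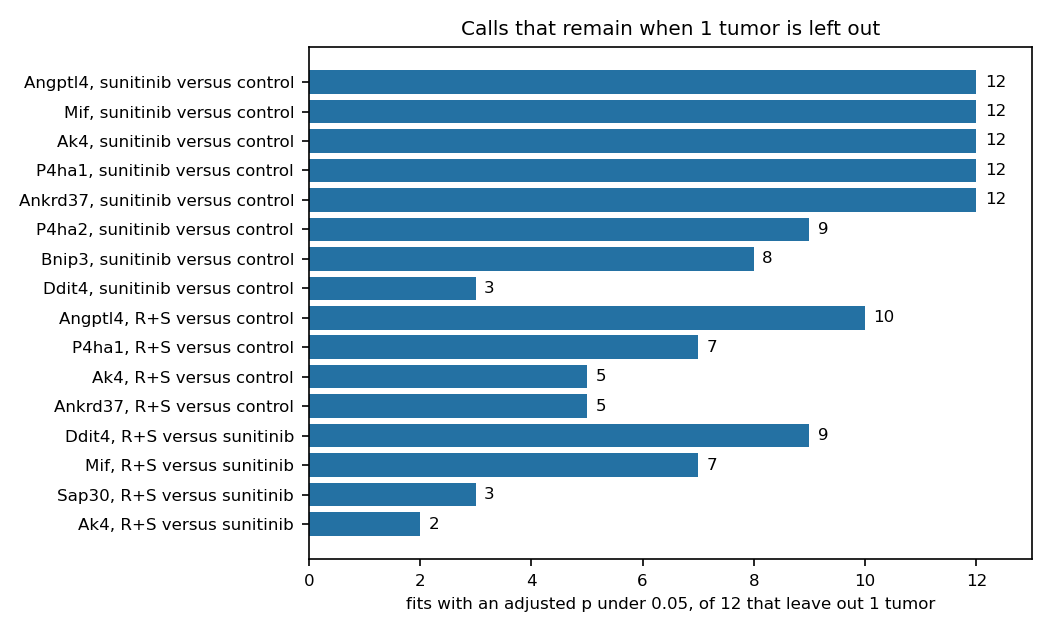
For each member and comparison with an adjusted p under 0.05, the bar gives in how many of 12 fits, each without 1 tumor, the adjusted p stayed under 0.05. *Angptl4*, *Mif*, *Ak4*, *P4ha1* and *Ankrd37* stayed called in all 12 for sunitinib versus control, while *Ak4* stayed called in 2 and *Sap30* in 3 of 12 for R+S versus sunitinib.

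When each tumor was left out in turn, *Angptl4*, *Mif*, *Ak4*, *P4ha1* and *Ankrd37* remained called with sunitinib in all 12 fits, with adjusted p of at most 0.0366 (*Mif*). *P4ha2* remained called in 9 of 12, all but those without control tumor 2, 3 or 4, and *Bnip3* in 8, since it was also lost without sunitinib tumor 12. *Ddit4* remained called in 3, those without sunitinib tumor 5, 6 or 8. For R+S versus control *Angptl4* remained called in 10 fits, all but those without control tumor 2 or 4, *P4ha1* in 7, and *Ak4* and *Ankrd37* in 5 each. For R+S versus sunitinib *Ddit4* remained called in 9, all but those without R+S tumor 4, 5 or 7, *Mif* in 7, *Sap30* in 3 and *Ak4* in 2. The sign of these 16 called values stayed the same in every fit and alternative run.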

How the data were processed

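RNA-seq was analysed from 12 PanNETs, 4 per group, grouped by their labels. The authors deposited, per tumor, raw counts of reads on Ensembl genes from strand-specific poly(A) libraries. The submitters' processing notes name cutadapt 1.2.1, TopHat2 2.0.9, HTSeq 0.5.4p3 and GRCm38. The annotation release and the strand setting are not given in the sources used here. The 5 closing total lines were left out, and reads on no gene made up 11.2% to 18.9% of those plus the gene counts. Reads aligned to several places are not in gene counts (21203479 to 48418780 such alignments per tumor), so genes with close copies are undercounted. No 2 tumors of a group differed by as little as sampling noise. Totals were 31872342 to 44215054, and counts of a few reads remain imprecise.

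Counts were scaled by TMM, filtered by filterByExpr (minimum count 10, minimum total 15) and tested with the robust quasi-likelihood test of edgeR 4.0.16 (R 4.3.3, limma 3.58.1) in 1 fit of 12 tumors and 3 groups. Adjusted p-values (Benjamini-Hochberg, over 16645 genes) had a threshold of 0.05. Normalized CPM are counts divided by the TMM-scaled library size, per 1000000 reads, and log2 CPM used a prior count of 2. A member persisted if it was called in sunitinib versus control and, in the same direction, in R+S versus control, and it reversed if it was called in the opposite direction in R+S versus sunitinib. The edgeR fit was also run on simulated counts, to check that fold changes set in advance were recovered. The simulated tumors were independent and none was made to stand apart, so the simulation gives no error rate for these tumors. Exact permutation tests were two-sided over 70 arrangements. Coordinates are from GENCODE M21 (GRCm38) and windows from RefSeq (GRCm38.p6).

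All 31 members are named, with values in every tumor for those called with sunitinib or between R+S and sunitinib and for the first 2 others by adjusted p in each role. *Stc1*, *Ciart* and the other remaining members are given by range. Other lists are given by counts and their first 3 genes by adjusted p with sunitinib, and further genes of those lists (*Car9* and *Atf4* between R+S and sunitinib) were picked after their values were seen. Members and lists were chosen with earlier results of these data known. Alternatives were DESeq2 1.42.0, limma voom with tumor weights, 3 other scalings, 2 other filters, only the 8 tumors compared, tumors of 1 label prefix summed in the treated groups (leaving 2 sunitinib and 3 R+S samples, with the 4 control tumors kept apart since they share 1 prefix), the acinar score as a covariate, a further requirement of a log2 fold change of at least 1 in size, and the omission of each tumor.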

Additional observations from a re-analysis of the deposited data

Results flagged for a closer look

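In 93 sets of 4 tumors (31 genes in 3 groups), the highest or lowest tumor was tested for its gap to the rest, and 4 sets exceeded Dixon's 95% critical ratio. Chance gives about 1 in 20 sets. All 4 were sunitinib tumor 6. It was far above the other sunitinib-treated tumors for *Zfp395* (193 CPM), *Ddit4* (103 CPM) and *Ppp1r3c* (25.2 CPM), and far below them for *Plod1* (25.3 CPM). The same tumor had the lowest beta cell marker sum (4656 CPM) and the highest acinar marker sum (42858 CPM) of its group, and the part of either in these values was not tested.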

How the results depend on the processing

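No paired analysis was possible because the labels name no pairs of tumors across groups, and no label prefix is shared between groups. The 16 called member values kept their sign in every alternative run, and no value that turned was called in the edgeR fit of 12 tumors. The causes of these shifts were not tested.

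For sunitinib versus control, 8 members were called, and the count was 12 with DESeq2 and 11 with summed prefixes. It was 5 with only the 8 tumors compared, 0 with the acinar score as a covariate, and 5 to 11 when 1 tumor was left out. Over all genes, 758 of 16297 were higher with DESeq2 and 355 of 17127 with summed prefixes. With only the 8 tumors compared 141 of 16293 were higher, with the acinar score 0, and without 1 tumor 172 to 467. For R+S versus control, 4 members were called higher, and the count was 14 with limma, 9 with only the 8 tumors, 0 with the acinar score, and 0 to 7 without 1 tumor. Over all genes, 2584 of 16645 were higher with limma, 1083 of 16184 with only the 8 tumors and 0 with the acinar score. Without 1 tumor the range over all genes was 106 to 692. The count of members called lower was 0, and it was 4 with limma, 2 with only the 8 tumors, and 0 to 2 without 1 tumor. Over all genes, 2714 of 16645 were lower with limma, 1474 of 16184 with only the 8 tumors, and 185 to 935 without 1 tumor. For R+S versus sunitinib, 4 members were called lower, and the count was 10 with DESeq2, 7 with at least 10 counts required in every tumor, 2 without a filter, 2 with the acinar score, 0 with only the 8 tumors, and 0 to 8 without 1 tumor. Over all genes, 1825 of 15651 were lower with DESeq2, 855 of 14330 with that count required and 292 of 26179 without a filter. With the acinar score 99 of 16645 were lower, with only the 8 tumors 3 of 16167, and without 1 tumor 0 to 1691. The count of members called higher was 0, and 1 with limma, which called 1731 of 16645 genes higher. The count of members that persisted was 4, and it was 7 with limma, 0 with the acinar score and 0 to 5 without 1 tumor. The count that reversed was 3, and it was 5 with DESeq2, 5 with summed prefixes, 1 with limma, 1 without a filter, 0 with the acinar score and 0 to 4 without 1 tumor. Over all genes the calls with sunitinib (321 higher, 424 lower) ranged over 0 to 758 and 0 to 774, those for R+S versus control (258, 435) over 0 to 2584 and 0 to 2714, and those for R+S versus sunitinib (438, 762) over 0 to 1731 and 0 to 1839.

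With the acinar score in the fit, the log2 fold changes that turned were for sunitinib versus control *Adm* -0.72, *Stc1* -0.74, *Stc2* -3.51, *Ppp1r3c* -2.52, *Bnip3l* -0.0861, *Plod1* 0.62, *Ero1l* -0.0236, *Mxi1* -0.14, *Zfp395* -2.26, *Kdm3a* -0.83, *Wsb1* -0.44 and *Tmem45a* -0.23, and for R+S versus control *Adm* -1.98, *Stc2* -3.39, *Ppp1r3c* -1.70, *Bnip3l* -0.00472, *Fam162a* -0.91, *P4ha2* -0.13, *Plod1* 0.49, *Plod2* -0.0766, *Mxi1* -0.16, *Ciart* 0.0757, *Sap30* 1.11, *Zfp395* -2.18, *Kdm3a* -0.57 and *Ndrg1* -0.47, and for R+S versus sunitinib *Stc2* 0.12, *Ppp1r3c* 0.82, *Bnip3l* 0.0814, *Ero1l* 0.0789, *Nfil3* 0.0194 and *Zfp395* 0.0815. With limma and tumor weights, the log2 fold changes that turned were for sunitinib versus control *Stc1* -1.68, *Plod1* 0.0956, *Mxi1* -0.11, *Kdm3a* -0.12, *Ndrg1* 0.0375 and *Wsb1* -0.29, and for R+S versus control *Tmem45a* 0.21, and for R+S versus sunitinib *Angptl4* 0.00536, *Ppp1r3c* 1.07, *Bnip3* 0.33, *Bnip3l* 0.43, *P4ha1* 0.15, *P4ha2* 0.10, *Ero1l* 0.11, *Mxi1* 0.23, *Nfil3* 0.0674, *Zfp395* 0.51, *Wsb1* 0.021 and *Ankrd37* 0.30. With treated tumors of 1 label prefix summed and control tumors kept apart, the log2 fold changes that turned were for sunitinib versus control *Stc1* -0.22, and for R+S versus control *Fam162a* -0.0778, and for R+S versus sunitinib *Ero1l* 0.0878, *Mxi1* 0.0296, *Cited2* 0.0463 and *Kdm4b* -0.0115. With library-size scaling, the log2 fold changes that turned were for R+S versus control *Fam162a* -0.0254. With upper-quartile normalization, the log2 fold changes that turned were for R+S versus control *Fam162a* -0.0177.

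Leaving out 1 tumor at a time turned the sign of 20 values, and their lowest to highest values were for sunitinib versus control *Mxi1* -0.0512 to 0.34, *Ndrg1* -0.19 to 0.0241, *Plod1* -0.21 to 0.14, *Stc1* -2.16 to 0.73, *Wsb1* -0.21 to 0.37 and *Zfp395* -0.0118 to 1.68, and for R+S versus control *Fam162a* -0.20 to 0.18 and *Tmem45a* -0.34 to 0.22, and for R+S versus sunitinib *Bnip3l* -0.20 to 0.25, *Cited2* -0.27 to 0.00869, *Ero1l* -0.14 to 0.12, *Kdm3a* -0.15 to 0.42, *Kdm4b* -0.0337 to 0.15, *Mxi1* -0.18 to 0.20, *Nfil3* -0.32 to 0.22, *Plod1* -0.27 to 0.0874, *Plod2* -0.70 to 0.10, *Ppp1r3c* -0.87 to 1.51, *Wsb1* -0.56 to 0.015 and *Zfp395* -0.97 to 0.73.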
